A study of Mus musculus with 34 samples.

Results

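H3K27ac (acetylation of histone H3 at lysine 27, a mark of active promoters and enhancers) and the binding of LXR, SMAD4 and RBPJ were examined at the genes of 10 Toll-like receptors, Tlr1 to Tlr9 and Tlr13. The members were taken by name: every deposited H3K27ac region annotated to one of these genes within 100 kb of its start, and every deposited factor peak that overlaps such a region. This gave 121 of 84647 regions in the table of liver macrophages and monocytes and 115 of 95038 regions in the table of cultured macrophages, with at least 4 regions for every gene. The first table held 3 groups of 2 libraries each: resident Kupffer cells (no treatment; strain label C57BL/6J, although the series text names Clec4f-Cre/DTR mice), repopulating liver macrophages (RLM; Clec4f-cre/Rosa26iDTR mice, 24 h after diphtheria toxin) and blood Ly6C-high monocytes (C57BL/6J, no treatment). In the RLM mice, Cre made under the Kupffer cell gene Clec4f switches on the toxin receptor, so toxin, genotype and cell type cannot be told apart between RLM and the other groups. The second table held bone marrow-derived macrophages (BMDM, C57BL/6J, 4 days in culture) given the Notch ligand DLL4 for 24 h, and untreated BMDM, again 2 libraries each. Factor binding was measured in Kupffer cells (LXR) or Kupffer cell nuclei (SMAD4, RBPJ) of Clec4f-cre mice and in C57BL/6J BMDM. For LXR, the BMDM were cultured for 7 days and given the agonist GW3965 for 18 h, while for SMAD4 and RBPJ they were cultured for 4 days without treatment. The labels do not state that the 2 libraries of a group are from different animals or cultures. The p-values therefore describe the scatter of these libraries, and that scatter may be technical. Blood and liver as sources also differ together with cell type and cannot be told apart from it.

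Toll-like receptors recognise conserved molecules of microbes and pass the signal through adaptors such as MyD88 and TRIF to NF-kB, MAP kinases and interferon regulatory factors. TLR1, TLR2, TLR4, TLR5 and TLR6 sit mainly at the cell surface and bind lipoproteins, lipopolysaccharide or flagellin. TLR3, TLR7, TLR8, TLR9 and, in mice, TLR13 sit in endosomes and bind nucleic acids. Kupffer cells line the liver sinusoids and meet bacterial products that arrive in portal blood. LXR is a nuclear receptor for oxysterols, SMAD4 carries signals of the TGF-beta and BMP family, and RBPJ is the DNA-binding partner of Notch.

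The H3K27ac libraries held 7.37 to 19.5 M tags in the liver table and 20.2 to 27.2 M in the BMDM table. Levels are in CPM, tags scaled by a library total that edgeR had adjusted with its TMM factor, not by the total tags alone. A gene's level is that of the tags summed over its regions. Regions are annotated to the nearest start, which need not be the gene they act on, and fewer marked cells cannot be told apart from less mark per cell. Regions of a gene can overlap (64.5% and 61.7% of the member regions overlap another), so sums count some tags more than once and are compared between groups only, not between genes. Shared stretches also weigh more in a gene's fold change and test, so gene sums of regions that do not overlap were fitted as an alternative. A region or gene is called higher or lower where the edgeR quasi-likelihood test gave a Benjamini-Hochberg adjusted p under 0.05 and the fold was at least 2. Of the defining lists, that of Kupffer cells had 6 of 6 genes called higher in Kupffer cells, both against RLM and against monocytes. Their summed level was 1801 to 2073 CPM in Kupffer cells, 387 to 408 in RLM and 111 to 134 in monocytes. The monocyte list was mixed: of 6 genes, 1 was called higher and 3 lower in Kupffer cells, both against RLM and against monocytes. In RLM against monocytes, 0 were called higher and 3 lower. The monocyte list summed to 226 to 235 CPM in Kupffer cells, 444 to 453 in RLM and 478 to 483 in monocytes. Markers of liver endothelium summed to 199 to 204 CPM in Kupffer cells, 100.1 to 107 in RLM and 77.0 to 85.0 in monocytes over 5 genes, which went both ways: in Kupffer cells 2 were called higher and 1 lower against RLM, and 3 higher and 2 lower against monocytes. The 3 hepatocyte markers summed to 48.1 to 50.7 CPM in Kupffer cells, 19.1 to 20.3 in RLM and 15.8 to 17.1 in monocytes, with 1 called, Ttr, and a median log2 fold change of -0.08 against RLM. In BMDM the endothelial sum was 144 to 146 CPM with DLL4 and 55.9 to 57.6 without, and 1 of the 5 genes was called, Pecam1, with a mean of 108 CPM with DLL4 and 25.03 without. No gene of these lists was at 0, and their part in the results below was not tested. Plasmacytoid dendritic cell markers, which matter for Tlr7 and Tlr9, had 254 to 275 CPM in Kupffer cells, 211 to 228 in RLM and 165 to 204 in monocytes, and of 4 genes 1 was called higher and 1 lower in Kupffer cells against monocytes.

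Promoter sequences are shown for the genes whose promoters the results below turn on. RefSeq entries (GRCm38.p6, the assembly that mm10 names) were matched for 8 of the 10 genes, with 10 promoters in all. Each sequence is the 250 bases before an annotated start on the strand of the gene, and capitals mark matches, on either strand, to the 8 letter strings searched. These were GAGGAAGT (PU.1), TGGGAA (RBPJ), CAGACA (SMAD), AGGTCA (an LXR half-site), GAAA and GAAA parted by 2 bases (interferon-stimulated response element, ISRE), GGGA and CC parted by 4 bases (NF-kB), TTGCNNAA (C/EBP) and TGANTCA (AP-1). A match is a description of letters and not a shown binding site.
Tlr1, chr5:64933559-64933808, minus strand: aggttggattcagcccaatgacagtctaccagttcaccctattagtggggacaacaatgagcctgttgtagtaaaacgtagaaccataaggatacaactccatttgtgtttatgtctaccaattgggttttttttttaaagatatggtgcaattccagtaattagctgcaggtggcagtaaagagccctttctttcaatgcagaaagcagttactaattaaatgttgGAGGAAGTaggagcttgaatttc
Tlr2, chr3:83841609-83841858, minus strand: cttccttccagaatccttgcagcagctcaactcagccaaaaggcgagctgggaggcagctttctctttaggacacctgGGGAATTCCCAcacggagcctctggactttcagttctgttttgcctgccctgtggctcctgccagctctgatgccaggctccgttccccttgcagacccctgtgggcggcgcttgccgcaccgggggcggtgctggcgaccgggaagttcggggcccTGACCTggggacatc
Tlr3, chr8:45410381-45410630, minus strand: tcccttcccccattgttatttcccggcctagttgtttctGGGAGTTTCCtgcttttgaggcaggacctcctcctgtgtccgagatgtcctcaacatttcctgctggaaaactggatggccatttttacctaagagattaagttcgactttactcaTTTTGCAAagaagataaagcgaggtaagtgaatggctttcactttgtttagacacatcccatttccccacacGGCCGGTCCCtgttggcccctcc
Tlr6, chr5:64960049-64960298, minus strand: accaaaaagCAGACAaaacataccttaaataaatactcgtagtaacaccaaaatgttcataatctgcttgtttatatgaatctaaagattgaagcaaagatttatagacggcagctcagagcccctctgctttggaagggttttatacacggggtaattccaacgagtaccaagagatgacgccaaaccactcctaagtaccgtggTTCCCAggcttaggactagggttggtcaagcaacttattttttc
Tlr9, chr9:106222348-106222597, plus strand: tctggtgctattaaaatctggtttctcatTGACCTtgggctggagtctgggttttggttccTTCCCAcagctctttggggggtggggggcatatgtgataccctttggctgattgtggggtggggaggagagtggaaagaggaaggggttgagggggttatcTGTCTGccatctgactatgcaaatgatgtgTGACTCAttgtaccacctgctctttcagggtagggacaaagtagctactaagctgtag
The upstream Tlr1 promoter holds GAGGAAGT at -23 to -16 from the start, a string found in 2.44% of 32851 RefSeq promoters of this length. Tlr2 holds an NF-kB string at -172 to -163 that overlaps an RBPJ string at -167 to -162, and an LXR half-site at -15 to -10. Tlr3 holds NF-kB strings at -211 to -202 and -23 to -14 and a C/EBP string at -95 to -88. The upstream Tlr6 promoter has an RBPJ string at -44 to -39 and a SMAD string at -241 to -236. Tlr9 has an LXR half-site, an RBPJ, a SMAD and an AP-1 string. Among all promoters the shares were 17.6% for NF-kB, 21.6% for RBPJ, 17.1% for SMAD, 14% for the LXR half-site, 9.56% for C/EBP, 6.75% for AP-1 and 2.98% for ISRE, so most of these strings are common. The ISRE string was present in 1 of the 10 member promoters, the downstream promoter of Tlr6, as a pair of overlapping matches at -116 to -107 and -110 to -101.

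By the edgeR quasi-likelihood test with the 2-fold minimum, H3K27ac was called higher in Kupffer cells than in monocytes at 5 of the 10 receptor genes. None was called lower (0 of 10, 2 at an unadjusted p under 0.05 and 0 with DESeq2). Tlr1, Tlr3, Tlr4, Tlr7 and Tlr8 were called higher, and Tlr2, Tlr5, Tlr6, Tlr9 and Tlr13 were not called. With no fold minimum, 7 members were higher and 1, Tlr5, was lower at an adjusted p under 0.05. Of all 16749 genes tested, 18.4% were called higher and 14.4% lower in this comparison with the 2-fold minimum. The share of all genes without that minimum was not counted. The median log2 fold change of the members was 0.83, beside -0.08 for all genes. Against RLM, Kupffer cells were called higher at Tlr3 alone (background 14.6% higher, 12.8% lower), with a member median of 0.62 beside -0.07. RLM were called higher than monocytes at Tlr4 alone (background 6.2% higher, 5.8% lower), with a member median of 0.20 beside 0.07. The 3 comparisons share libraries, so they are not independent of each other. Scaling by total tags in place of TMM moved the median of all genes by -0.33 for Kupffer cells against RLM and by -0.29 against monocytes. Under it Tlr5 was called lower in both comparisons (-1.20 and -1.10) and Tlr8 was no longer called against monocytes (0.82).

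**Figure D1:**
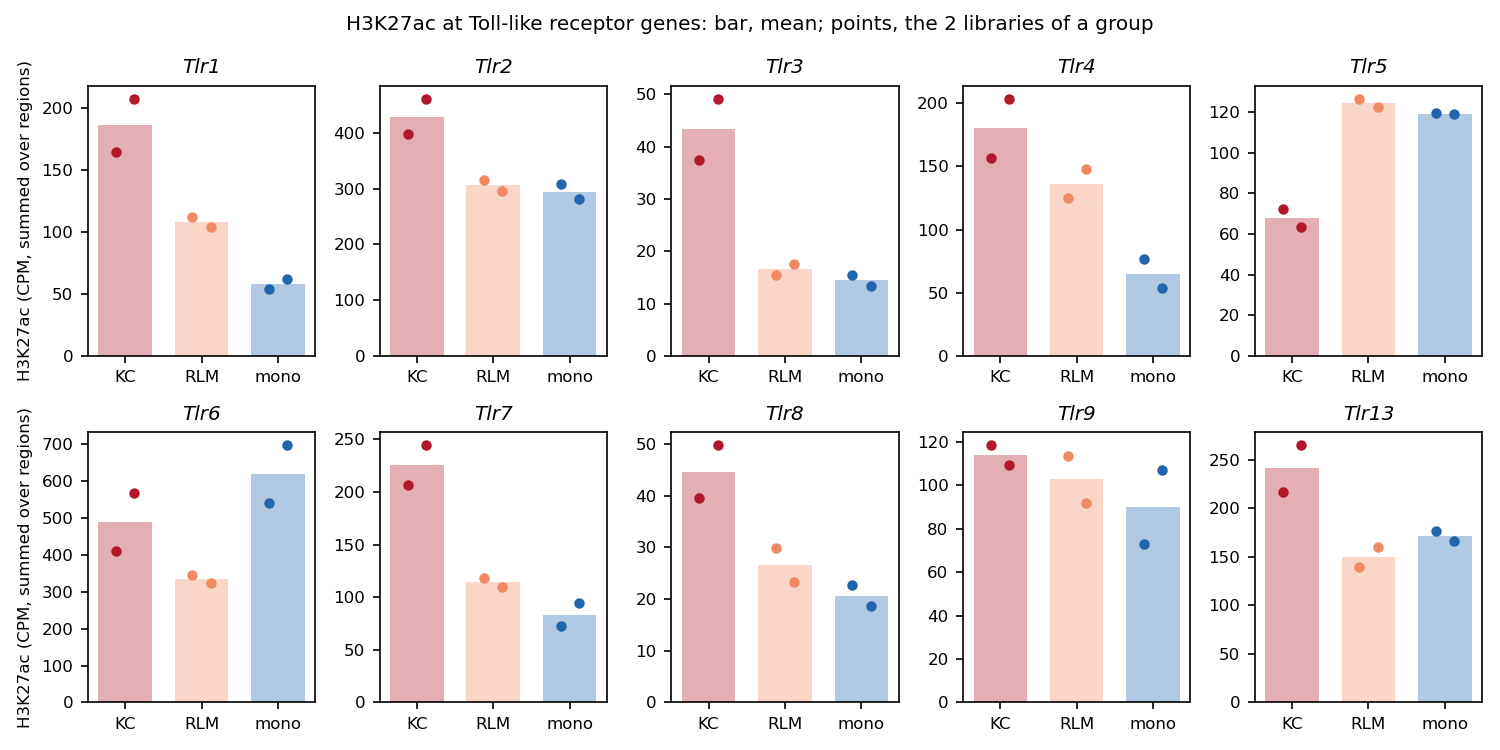
H3K27ac summed over the regions of each gene, in CPM, for the 2 libraries (points) and the mean (bar) of Kupffer cells (KC), RLM and monocytes (mono), each panel with its own axis from 0. Kupffer cells were called above monocytes at Tlr1, Tlr3, Tlr4, Tlr7 and Tlr8. Without a call, both Kupffer cell libraries also stand above both monocyte libraries at Tlr2, Tlr9 and Tlr13, and below them at Tlr5.

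**Figure D2:**
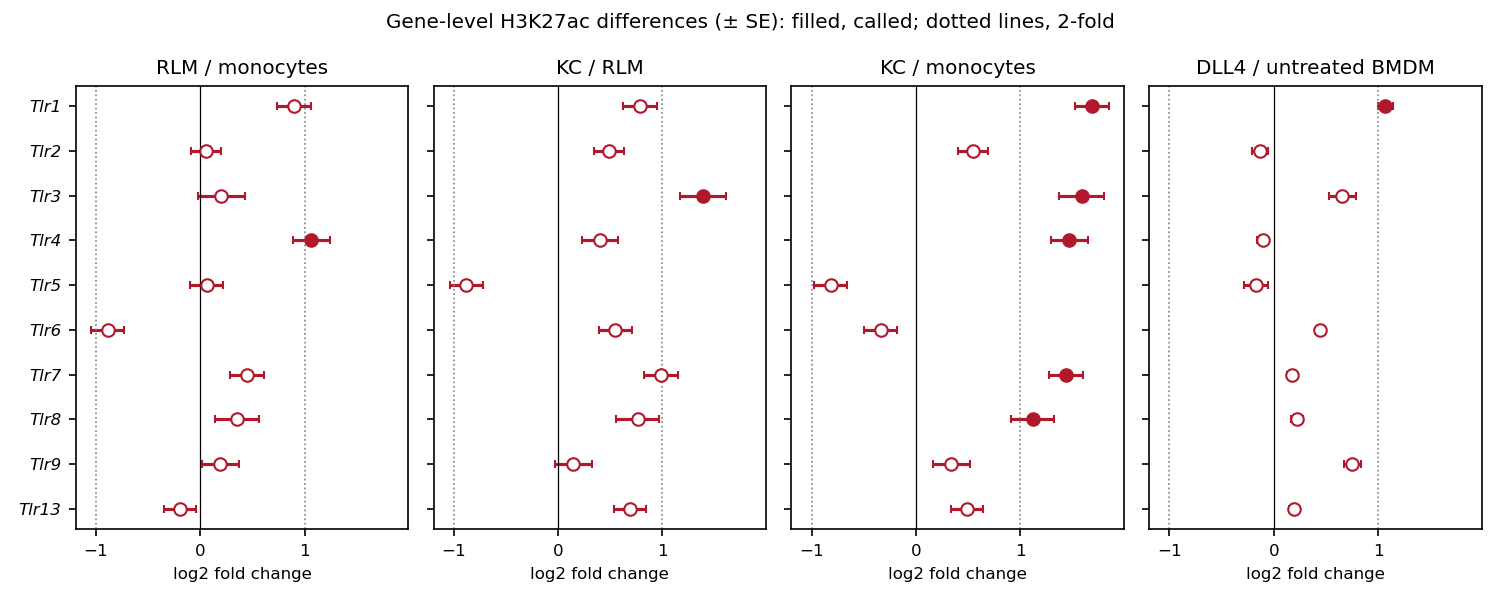
Gene-level log2 fold changes with their standard errors in the 4 H3K27ac comparisons. Filled points were called, and dotted lines mark 2-fold. Calls were made at Tlr4 for RLM against monocytes, at Tlr3 for Kupffer cells against RLM, at 5 genes for Kupffer cells against monocytes and at Tlr1 for DLL4 against untreated BMDM.

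By region, the counts of called members lay near the background in each liver comparison. Against monocytes, 32 of 118 tested member regions were higher in Kupffer cells (27.1%, background 24.9%) and 16 were lower (13.6%, background 17.7%). Against RLM, 24 were higher (20.3%, background 22.3%) and 13 lower (11%, background 13.9%). Between RLM and monocytes, 9 were higher in RLM (7.63%, background 8.57%) and 12 lower (10.2%, background 9.14%). The calls were spread unevenly over the genes. Tlr7 had 9 of 13 regions higher and none lower in Kupffer cells against monocytes, and Tlr1 had 7 of 10 higher and 1 lower. Tlr5 had none higher and 7 of 24 lower. Against RLM, 8 regions of Tlr7 were higher and 8 regions of Tlr5 were lower. The lower count against RLM depended on single libraries: it was 8 without Kupffer cell replicate 1 and 5 without Kupffer cell replicate 2, and against monocytes the 16 became 10 without Kupffer cell replicate 1.

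**Figure D3:**
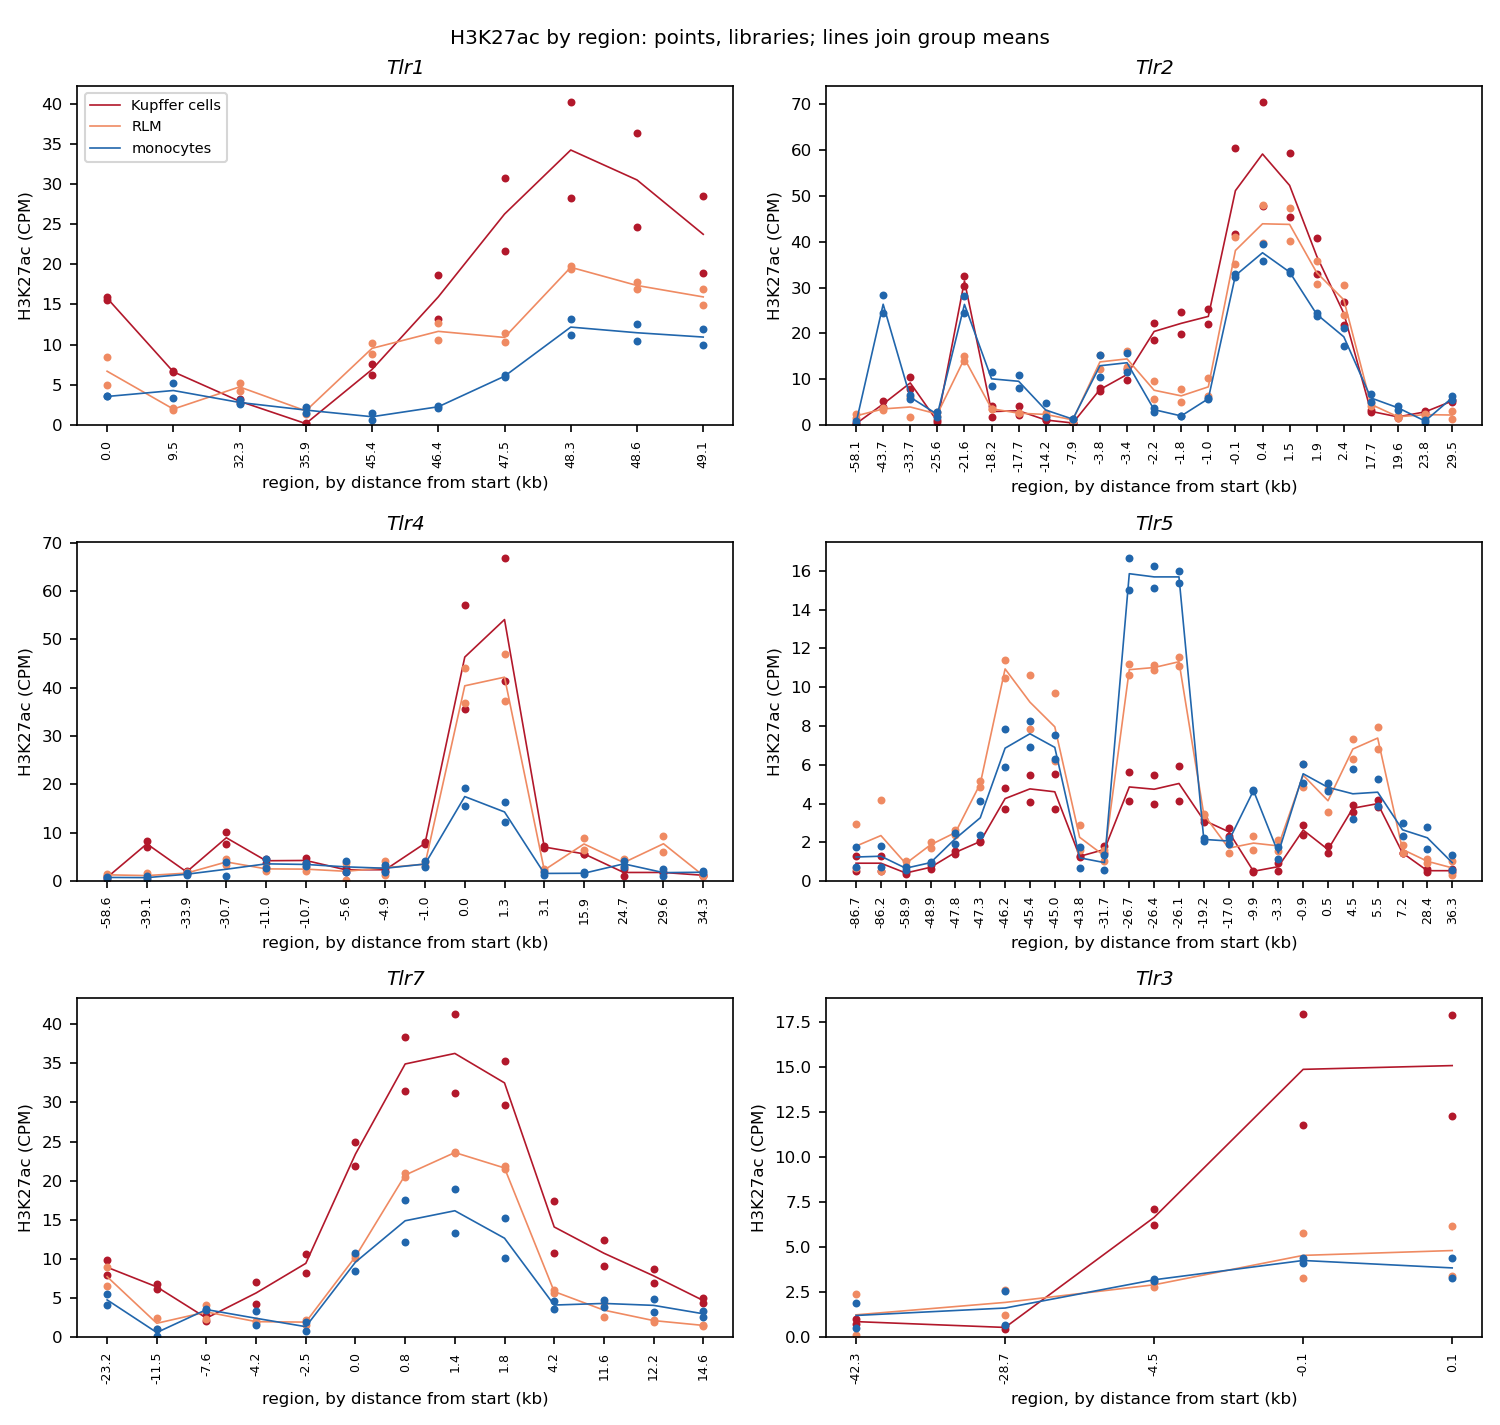
H3K27ac in CPM at each region of 6 receptor genes, ordered by distance from the start in kb (points, libraries; lines join group means; positions are not to scale). The regions 46 to 49 kb downstream of the Tlr1 start, the regions just upstream of Tlr2 and those around the starts of Tlr3 and Tlr7 stand highest in Kupffer cells, and the regions of Tlr5 about 26 kb upstream stand lowest there.

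Tlr4, the lipopolysaccharide receptor, was the one member called between RLM and monocytes. Its regions summed to 157 and 203 CPM in Kupffer cells, 125 and 148 in RLM and 76.8 and 53.6 in monocytes. Every Kupffer cell and RLM library lay above both monocyte libraries, and the Kupffer cell libraries lay above the RLM libraries. The log2 fold change was 1.07 (SE 0.18, adjusted p = 2.03e-05) for RLM against monocytes and 1.47 (SE 0.18, adjusted p = 2.20e-08) for Kupffer cells against monocytes, while that of Kupffer cells against RLM (0.40, SE 0.17, adjusted p = 0.0525) did not pass. The RLM call lost the 2-fold minimum without RLM replicate 2 (0.90) and without monocyte replicate 2 (0.79).

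Regions at the start of Tlr4 carried more of the mark in Kupffer cells and RLM than in monocytes. The promoter region (chromosome 4, 66826585 to 66828585) held 35.7 and 57.0 CPM in Kupffer cells, 36.8 and 44.0 in RLM and 19.3 and 15.6 in monocytes. The next region, in intron 1 and 1303 bp from the start, held 41.4 and 66.8 CPM in Kupffer cells, 37.3 and 47.0 in RLM and 16.4 and 12.2 in monocytes. At both regions the monocyte libraries were the lowest and the Kupffer cell and RLM libraries overlapped. The log2 fold changes against monocytes were 1.42 and 1.93 for Kupffer cells and 1.21 and 1.56 for RLM (SE 0.23 each).

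Other regions of Tlr4 separated Kupffer cells from RLM. An intergenic region at -39119 bp (chromosome 4, 66787432 to 66789432) held 8.35 and 7.04 CPM in Kupffer cells, 0.53 and 1.73 in RLM and 1.07 and 0.33 in monocytes. It was low in RLM and monocytes alike and rose in Kupffer cells by 2.69 (SE 0.48) against RLM and 3.43 (SE 0.49) against monocytes on the log2 scale. A region 29649 bp downstream of the start (66856200 to 66858200) held 1.67 and 1.88 CPM in Kupffer cells, 9.33 and 6.10 in RLM and 2.40 and 1.07 in monocytes. There RLM alone were high, by 2.14 (SE 0.42) against monocytes, and Kupffer cells were lower than RLM by a log2 fold change of -2.09 (SE 0.42). A region over the 3' UTR of Tlr4 (66842456 to 66844456) held 5.60 and 5.63 CPM in Kupffer cells, 8.93 and 6.40 in RLM and 1.82 and 1.40 in monocytes, and was called higher in RLM (2.23, SE 0.39) and in Kupffer cells (1.80, SE 0.39) than in monocytes.

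Tlr1, Tlr2 and Tlr6 encode the receptors that pair to bind lipoproteins, TLR2 with TLR1 or with TLR6, and their chromatin differed in different ways. Tlr1 summed to 165 and 207 CPM in Kupffer cells, 112 and 104 in RLM and 54.3 and 61.8 in monocytes. The 3 groups did not overlap. Kupffer cells exceeded monocytes by a log2 fold change of 1.68 (SE 0.16, adjusted p = 1.72e-10). RLM exceeded monocytes by 0.90 (SE 0.16, adjusted p = 6.27e-05) and Kupffer cells exceeded RLM by 0.79 (SE 0.16, adjusted p = 0.000143), both with adjusted p under 0.05 and under the 2-fold minimum. The difference of Kupffer cells from RLM passed 2-fold with regions within 25 kb (1.51) and without Kupffer cell replicate 1 (1.01).

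Most of the Tlr1 sum came from a cluster of overlapping regions about 45 to 49 kb downstream of its start, in the span of the predicted gene Gm31889, with Tlr1 as the nearest protein-coding gene. Its highest region (64883425 to 64885425 on chromosome 5) held 28.3 and 40.2 CPM in Kupffer cells, 19.4 and 19.8 in RLM and 11.2 and 13.2 in monocytes and was called for Kupffer cells against monocytes (1.497, SE 0.24), and against RLM only without Kupffer cell replicate 1 (1.07). At one end of this cluster, the region at 64886315 to 64888315 on chromosome 5 held 6.20 and 7.63 CPM in Kupffer cells, 10.3 and 8.84 in RLM and 0.58 and 1.49 in monocytes. It was high in RLM and Kupffer cells and nearly empty in monocytes, with log2 fold changes of 3.19 (SE 0.41) for RLM and 2.74 (SE 0.41) for Kupffer cells against monocytes. The promoter region of Tlr1 (64932607 to 64934607) behaved otherwise: it held 16.0 and 15.6 CPM in Kupffer cells, 8.41 and 4.98 in RLM and 3.55 and 3.55 in monocytes. Kupffer cells alone were called there, by 1.25 (SE 0.31) against RLM and 2.15 (SE 0.32) against monocytes, and RLM were not called against monocytes (0.89). Without RLM replicate 2, the difference from RLM was just short of 2-fold (0.93) and RLM were called above monocytes (1.24). A region 35918 bp downstream (64895781 to 64897781) went the other way, with 0.12 and 0.23 CPM in Kupffer cells, 2.10 and 1.42 in RLM and 2.23 and 1.49 in monocytes, which rests on 1 and 4 tags in the Kupffer cell libraries.

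Tlr2 had a gene sum that was not called in any comparison, and single regions that moved in opposite directions. The sums were 397 and 461 CPM in Kupffer cells, 315 and 296 in RLM and 308 and 281 in monocytes, and RLM and monocytes overlapped. With regions that do not overlap, RLM were lower than monocytes (-0.45, edgeR adjusted p = 0.0259), under the 2-fold minimum. Just upstream of the start, the region at -1806 bp (chromosome 3, 83842414 to 83844414) held 19.8 and 24.6 CPM in Kupffer cells, 7.75 and 4.98 in RLM and 2.07 and 1.90 in monocytes. The groups stood in a row without overlap, and all 3 comparisons were called: 1.66 (SE 0.36) for RLM against monocytes, 1.82 (SE 0.30) for Kupffer cells against RLM and 3.48 (SE 0.33, adjusted p = 6.95e-15) for Kupffer cells against monocytes. The promoter region at -64 bp, which overlaps it in part, had 41.7 and 60.5 CPM in Kupffer cells, 41.1 and 35.1 in RLM and 32.4 and 32.9 in monocytes and was not called (0.65 against monocytes). Nor was the highest region of the gene, in intron 1 and 406 bp from the start, with 47.8 and 70.4 CPM in Kupffer cells, 48.1 and 39.7 in RLM and 35.7 and 39.5 in monocytes.

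Farther upstream of Tlr2, a region at -43670 bp (chromosome 3, 83884278 to 83886278) held 5.25 and 3.93 CPM in Kupffer cells, 3.68 and 3.35 in RLM and 28.3 and 24.4 in monocytes. Both liver groups were low and monocytes high, with log2 fold changes of -2.91 (SE 0.31) for RLM and -2.55 (SE 0.30) for Kupffer cells. The region at -21557 bp held 30.3 and 32.6 CPM in Kupffer cells, 14.98 and 14.0 in RLM and 28.2 and 24.4 in monocytes. RLM were the lowest there, and Kupffer cells were called above RLM (1.12, SE 0.24) and not above monocytes (0.26). A nearly empty region at -58142 bp (83898750 to 83900750) is centred in the body of Tmem131l. It held 0.48 and 0.12 CPM in Kupffer cells, 2.36 and 1.63 in RLM and 0.83 and 0.08 in monocytes, and was called lower in Kupffer cells than in RLM (-2.90, SE 0.91). It rests on 4 and 2 tags in the Kupffer cell libraries, and the call was lost without RLM replicate 1 (-2.59) and without Kupffer cell replicate 2 (-2.01).

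Tlr6 leaned lower in RLM. Its regions, all within 2 kb of a start, summed to 412 and 567 CPM in Kupffer cells, 346 and 324 in RLM and 542 and 698 in monocytes. Both RLM libraries lay below all the others, and Kupffer cells and monocytes overlapped. The log2 fold change for RLM against monocytes was -0.89 (SE 0.16, adjusted p = 5.81e-05), under the 2-fold minimum, and it was called at -1.10 without monocyte replicate 1. At 4 of its 7 regions, -911 to -1908 bp from the start, RLM were called lower, by -1.12 to -1.19. These 4 regions overlap one another and share tags, so they are not separate observations. The promoter region at -11 bp, the highest of the gene, held 71.3 and 113 CPM in Kupffer cells, 65.3 and 63.0 in RLM and 101 and 130 in monocytes and was not called. The region at -1212 bp held 50.2 and 67.0 CPM in Kupffer cells, 43.4 and 38.6 in RLM and 82.1 and 105 in monocytes.

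Tlr5, the flagellin receptor, was the member that leaned lower in Kupffer cells. Its sums were 72.2 and 63.5 CPM in Kupffer cells, 126 and 123 in RLM and 119 and 119 in monocytes. The Kupffer cell libraries lay below the other 4. The log2 fold changes were -0.88 (SE 0.16, adjusted p = 2.87e-05) against RLM and -0.82 (SE 0.16, adjusted p = 5.16e-05) against monocytes, both under the 2-fold minimum. Called regions included an intergenic one at -9920 bp (chromosome 1, 182943868 to 182945868), with 0.48 and 0.53 CPM in Kupffer cells, 1.58 and 2.34 in RLM and 4.63 and 4.71 in monocytes, and 3 overlapping ones about 26 kb upstream. At -9920 bp the groups stood apart, with -3.17 (SE 0.54) for Kupffer cells against monocytes. The RLM call there (-1.23, edgeR adjusted p = 0.0422) was lost whichever library was left out, with DESeq2 and with scaling by total tags, and the call of Kupffer cells against RLM (-1.94, SE 0.59) was lost without RLM replicate 2 and without Kupffer cell replicate 2. The highest region, at -26093 bp, held 5.96 and 4.11 CPM in Kupffer cells, 11.6 and 11.1 in RLM and 15.4 and 16.0 in monocytes, and Kupffer cells were lower by -1.20 (SE 0.31) against RLM and -1.67 (SE 0.30) against monocytes. At -26352 bp the level was 5.48 and 3.99 CPM in Kupffer cells, 11.2 and 10.9 in RLM and 15.1 and 16.3 in monocytes. The region nearest the start, in intron 1 and 519 bp from it, held 1.43 and 1.82 CPM in Kupffer cells, 4.73 and 3.56 in RLM and 5.04 and 4.62 in monocytes, and was called lower in Kupffer cells in both comparisons (-1.31, SE 0.43, and -1.54, SE 0.42). The calls against RLM were lost without Kupffer cell replicate 2 at -26093 bp (-0.91), and at 519 bp without RLM replicate 1 (-1.07) or Kupffer cell replicate 1 (-1.14) or 2 (-1.50). The promoter region at -935 bp was low in all groups and lowest in Kupffer cells, with 2.38 and 2.87 CPM, beside 6.04 and 4.88 in RLM and 6.03 and 5.04 in monocytes.

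Of the endosomal receptors, Tlr3, which senses long RNA duplexes, was the member called between Kupffer cells and RLM. Its regions summed to 37.5 and 49.2 CPM in Kupffer cells, 15.6 and 17.7 in RLM and 15.5 and 13.4 in monocytes. RLM and monocytes were close together, with no overlap, and both Kupffer cell libraries stood far above them. The log2 fold change was 1.39 (SE 0.22, adjusted p = 2.95e-06) against RLM and 1.59 (SE 0.21, adjusted p = 1.34e-07) against monocytes, and leaving out 1 library at a time gave 1.17 to 1.63 against RLM. The promoter region at 45409310 to 45411310 on chromosome 8 held 12.3 and 17.9 CPM in Kupffer cells, 3.42 and 6.20 in RLM and 3.31 and 4.38 in monocytes. An intergenic region at -4548 bp (45414167 to 45416167) held 6.20 and 7.10 CPM in Kupffer cells, 2.76 and 3.05 in RLM and 3.14 and 3.22 in monocytes and was called against RLM (1.20, SE 0.38) and monocytes (1.07, SE 0.37). A weak region at -28739 bp (45438358 to 45440358) went the other way, with 0.60 and 0.47 CPM in Kupffer cells, 2.63 and 1.22 in RLM and 2.56 and 0.66 in monocytes. Kupffer cells were lowest there and were called lower, by -1.84 (SE 0.71, adjusted p = 0.0287) against RLM and -1.61 (SE 0.70) against monocytes, on 5 and 8 tags in the Kupffer cell libraries. The call against RLM was lost with DESeq2 (-1.88), without RLM replicate 1 (-1.19) and without Kupffer cell replicate 1 (-1.96) or 2 (-1.63).

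Tlr7 and Tlr8, neighbours on the X chromosome, were both called higher in Kupffer cells than in monocytes. All libraries had few tags at Xist (0 to 8) and many in regions on the Y chromosome (1802 to 5105), the pattern of male cells. TLR7 binds single-stranded RNA, as TLR8 does in humans. Tlr7 summed to 206 and 244 CPM in Kupffer cells, 118 and 110.1 in RLM and 72.8 and 94.0 in monocytes. No group overlapped another. The log2 fold change was 1.44 (SE 0.16, adjusted p = 3.91e-09) against monocytes and 0.99 (SE 0.16, adjusted p = 5.95e-06) against RLM. The difference from RLM missed the 2-fold minimum and passed it in 8 alternatives, among them DESeq2 (1.02).

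The promoter region of Tlr7 (167329571 to 167331571) held 21.8 and 24.99 CPM in Kupffer cells, 10.5 and 10.1 in RLM and 8.43 and 10.7 in monocytes, with RLM and monocytes overlapping. Kupffer cells were higher by 1.19 (SE 0.27) and 1.29 (SE 0.26) on the log2 scale. The highest region, 1356 bp downstream in an intron, held 31.2 and 41.3 CPM in Kupffer cells, 23.5 and 23.7 in RLM and 13.3 and 19.0 in monocytes and was called against monocytes (1.17, SE 0.24), but not without monocyte replicate 1 (0.89) or Kupffer cell replicate 2 (0.96). Upstream, the region at -2494 bp held 8.23 and 10.6 CPM in Kupffer cells, 1.58 and 2.23 in RLM and 0.74 and 1.90 in monocytes. The region at -11481 bp held 6.08 and 6.75 CPM in Kupffer cells, 2.50 and 1.02 in RLM and 0.08 and 1.07 in monocytes. Both were low outside Kupffer cells, with log2 fold changes against RLM of 2.29 (SE 0.41) and 1.91 (SE 0.49).

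Tlr8 summed to 39.6 and 49.8 CPM in Kupffer cells, 29.9 and 23.3 in RLM and 22.8 and 18.6 in monocytes. The Kupffer cell libraries were the highest. Its promoter region, with 13.7 and 17.1 CPM in Kupffer cells, 8.67 and 8.84 in RLM and 8.76 and 8.01 in monocytes, was not called. Its highest region, in intron 1 and 1411 bp from the start, held 16.6 and 24.9 CPM in Kupffer cells, 14.6 and 9.85 in RLM and 10.2 and 8.42 in monocytes and was called against monocytes (1.17, SE 0.27), but not without Kupffer cell replicate 2 (0.84), and it passed against RLM without RLM replicate 1 (1.11) or Kupffer cell replicate 1 (1.07). The gene's log2 fold change against monocytes was 1.12 (SE 0.21, adjusted p = 2.31e-05) and it fell short of 2-fold without Kupffer cell replicate 2 (0.90) or monocyte replicate 2 (0.98). Tlr9, the receptor for unmethylated CpG DNA, had 118 and 109 CPM in Kupffer cells, 114 and 92.1 in RLM and 72.9 and 107 in monocytes, and no comparison was called. Its promoter region held 26.1 and 22.2 CPM in Kupffer cells, 33.0 and 27.1 in RLM and 23.8 and 36.1 in monocytes. Both RLM libraries lay above both Kupffer cell libraries, and monocytes overlapped each of the other groups; no comparison was called there. A weak region over exon 2 (3764 bp from the start) was called higher in RLM (1.45, SE 0.46, adjusted p = 0.0135) and in Kupffer cells (1.33, SE 0.46) than in monocytes. The RLM call was lost without RLM replicate 2 or monocyte replicate 2, and the Kupffer cell call without Kupffer cell replicate 1 or monocyte replicate 2.

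Tlr13, which in mice senses bacterial ribosomal RNA, had 217 and 265 CPM in Kupffer cells, 140 and 161 in RLM and 177 and 167 in monocytes. It was not called, with 0.68 (SE 0.15, adjusted p = 0.000390) against RLM and 0.49 (SE 0.15) against monocytes. Its promoter region, with 13.5 and 17.5 CPM in Kupffer cells, 11.4 and 11.9 in RLM and 16.4 and 17.2 in monocytes, was not called, and neither was its highest region, at -7174 bp, with 34.9 and 47.2 CPM in Kupffer cells, 26.4 and 29.5 in RLM and 27.5 and 22.6 in monocytes. The largest differences were at an intergenic pair of overlapping regions 12 to 13 kb upstream. The one at -12439 bp (chromosome X, 106129836 to 106131836) held 5.96 and 8.86 CPM in Kupffer cells, 4.60 and 4.17 in RLM and 14.5 and 19.9 in monocytes. Monocytes were the highest there, with -1.97 (SE 0.32) for RLM and -1.19 (SE 0.29) for Kupffer cells. The Kupffer cell call missed 2-fold without Kupffer cell replicate 1 (-0.93) and without monocyte replicate 2 (-0.92).

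For the members called in at least 2 liver comparisons, the genes most like them were found by Euclidean distance between the 3 group means of log2(CPM + 0.5), each centred on its own mean. These were Ascc2 (distance 0.0031) and Mir3079 (0.011) for Tlr3, and Cideb (0.0085) and Rasd2 (0.020) for Tlr4, over 3 groups, 6 libraries and 14978 genes.

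The wider Toll-like receptor pathway was measured by 57 tested genes in 6 lists. Against RLM, Kupffer cells were called higher at 8 of them (14%, background 14.6%), about the share over all genes, and lower at 1 (1.75%, background 12.8%). Co-receptors and ligand-handling genes had 4 higher and 0 lower of 6 (median 1.21, beside -0.07 for all genes). Lbp, which carries lipopolysaccharide in plasma, was higher by 2.11 (SE 0.21) and Cd14, which hands it to TLR4, by 2.09 (SE 0.17). Ticam2, the adaptor that bridges TLR4 to TRIF, was higher by 1.56 (SE 0.18) and the kinase gene Irak2 by 1.55 (SE 0.15), while Tab3 was lower (-1.29, SE 0.29). Adaptors had 1 higher of 5, folding, transport and cleavage genes 1 of 9 and the activated factors 1 of 9, the kinases and ligases had 1 higher and 1 lower of 16, and none of the 12 brakes was called. Against monocytes, 11 were higher (19.3%, background 18.4%), again about the share over all genes, and 5 lower (8.77%, background 14.4%). The brake Nfkbia, which encodes the NF-kB inhibitor IkB alpha, was higher by 2.57 (SE 0.16), and the endosomal protease genes Lgmn and Ctsb, whose products cut endosomal receptors, by 2.41 (SE 0.16) and 2.08 (SE 0.15). Lower were Map3k7 (-1.62, SE 0.15), which encodes the kinase TAK1, Ikbkb (-1.31, SE 0.15), Tollip (-1.24, SE 0.22) and Irak3 (-1.23, SE 0.18). By list, co-receptors and ligand-handling genes had 3 higher of 6 (median 1.19, beside -0.08), folding, transport and cleavage genes 3 of 9 (median 0.84) and the activated factors 1 of 9 (0.26), the kinases and ligases had 3 higher and 3 lower of 16 (0.04) and the brakes 1 higher and 2 lower of 12 (0.27), and none of the 5 adaptors was called.

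At 24 h after toxin, RLM were called higher than monocytes at 4 of the 57 genes (7.02%, background 6.2%), near the share over all genes, and lower at 1 (1.75%, background 5.8%). Nfkbia was at 370 CPM in RLM and 95.1 in monocytes (1.96, SE 0.15), Unc93b1, the chaperone that carries nucleic acid receptors to endosomes, at 119 and 41.0 CPM (1.54, SE 0.18), Ctsb at 571 and 227 (1.33, SE 0.15) and Lgmn at 399 and 186 (1.10, SE 0.15). Irak3, an inhibitory kinase relative, was lower at 99.4 CPM in RLM and 230.3 in monocytes (-1.21, SE 0.18).

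With DLL4, H3K27ac rose in BMDM at Tlr1, the 1 member of 10 that was called. Of all 16421 genes tested, 2.6% were called higher and 1.28% lower. Tlr1 summed to 202 and 179 CPM with DLL4 and 90.2 and 91.4 without. The DLL4 libraries lay far above the untreated ones, with a log2 fold change of 1.07 (SE 0.07, adjusted p = 3.57e-20). It was 0.98 without DLL4 replicate 1 and 0.97 with scaling by total tags, just under the 2-fold minimum. The median of the members was 0.21, beside -0.0066 for all genes, and with no fold minimum 7 members had an adjusted p under 0.05, all higher. Of the 57 pathway genes, edgeR and DESeq2 each called 0 in either direction, while 25 were higher and 6 lower at an unadjusted p under 0.05. With no fold minimum, 22 were higher and 4 lower at an edgeR adjusted p under 0.05, so the 2-fold minimum set the count of 0. The share of all genes was counted with the 2-fold minimum only, so the counts without it, for members and pathway genes, have no background.

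Of 110 tested member regions, 7 were higher with DLL4 (6.36%, background 4.89%) and 1 lower (0.909%, background 2.64%), and 6 of the 7 belonged to Tlr1. The cluster downstream of Tlr1 was among them: its region at 64886321 to 64888321 held 12.6 and 12.5 CPM with DLL4 and 2.09 and 3.84 without (2.05, SE 0.23, adjusted p = 7.56e-09). At the Tlr1 promoter (64932606 to 64934606) DLL4 cells had 24.0 and 18.8 CPM and untreated cells 9.43 and 6.70 (1.42, SE 0.16). At both places the DLL4 libraries were clear of the untreated ones. A Tlr9 region in intron 1, 603 bp from the start, held 21.2 and 19.8 CPM with DLL4 and 9.91 and 9.95 without (1.05, SE 0.14), and it was 0.99 with scaling by total tags. The Tlr9 sum was 134 and 129.9 CPM with DLL4 and 80.8 and 76.2 without, a log2 fold change of 0.75 (SE 0.08, adjusted p = 3.14e-12) under the 2-fold minimum.

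**Figure D4:**
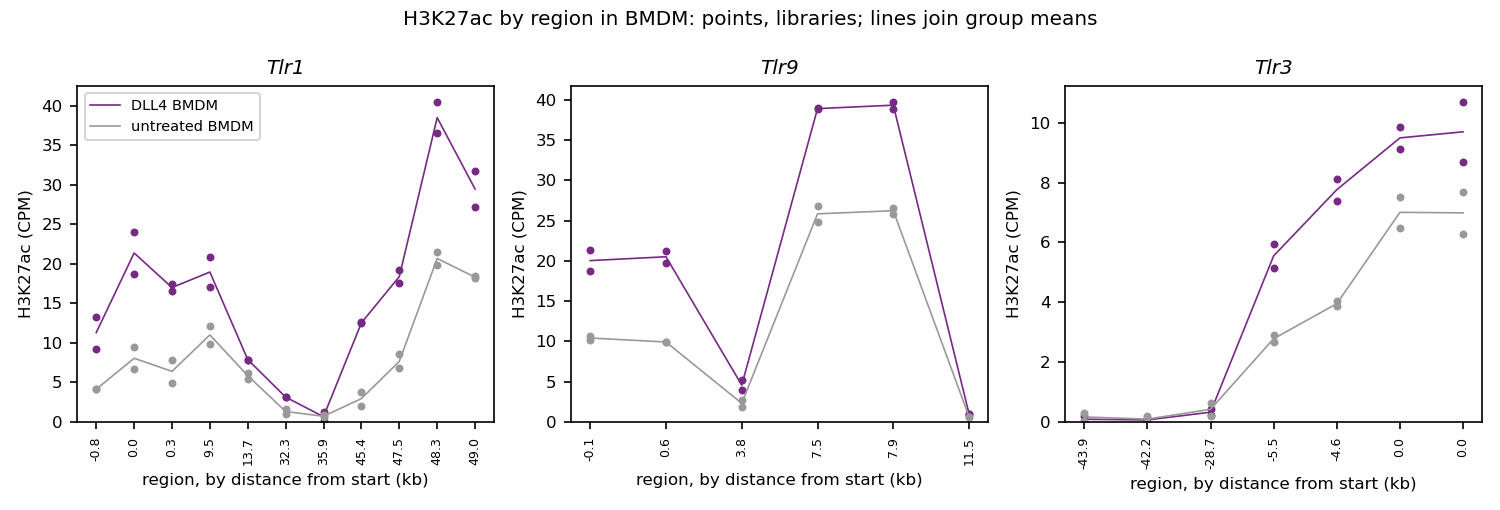
H3K27ac in CPM by region at Tlr1, Tlr9 and Tlr3 in BMDM with DLL4 and without (points, libraries; lines join group means; positions are not to scale). DLL4 libraries stand above untreated ones over the Tlr1 promoter and its downstream cluster, with 12.6 and 12.5 against 2.09 and 3.84 CPM at 45 kb.

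The other members differed less in BMDM. Tlr3 held 35.9 and 34.2 CPM with DLL4 and 23.8 and 20.8 without (0.65, SE 0.13, adjusted p = 3.90e-05), and Tlr6 held 568 and 592 CPM with DLL4 and 414 and 438 without (0.45, SE 0.05, adjusted p = 1.21e-12). The groups did not overlap at either gene, and both were under the 2-fold minimum. Tlr7, Tlr8 and Tlr13 had log2 fold changes of 0.17, 0.22 and 0.19, and Tlr2, Tlr4 and Tlr5 of -0.13, -0.11 and -0.17, of which the last 3 did not pass the adjusted p either (0.220, 0.154 and 0.323). At the promoters and highest regions of these 8 genes the log2 fold changes were -0.29 to 0.48, with none called. The single lower region was intergenic, at -23871 bp from the start of Tlr2, with 1.30 and 0.67 CPM with DLL4 and 2.19 and 3.55 without (-1.55, SE 0.44, adjusted p = 0.00843). That call was lost without DLL4 replicate 2 and without untreated replicate 2.

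Factor peaks fell on the member regions about as often as on all regions in Kupffer cells. LXR peaks of both libraries overlapped 54 of 121 member regions (44.6%, all regions 41.2%), SMAD4 peaks 39 (32.2%, all regions 35.5%) and RBPJ peaks 13 (10.7%, all regions 10.9%). In BMDM the numbers were 50 of 115 for LXR with agonist (43.5%, all regions 30.8%), 38 for SMAD4 (33%, all regions 27.7%) and 89 for RBPJ (77.4%, all regions 69.7%). Merged over libraries, the peaks formed 127 loci. LXR was present in both libraries at 31 loci in Kupffer cells and 38 in BMDM, of which 20 were the same, SMAD4 at 22 and 28, of which 14 were the same, and RBPJ at 8 and 79, with all 8 in both cell types. Shared loci were not counted over all peaks, so these locus counts have no background. RBPJ peaks of BMDM lay on 69.7% of all regions, so the 8 shared RBPJ loci cannot be read as particular to these genes. The RBPJ libraries of Kupffer cell nuclei had 1.01% and 0.76% of their tags in peaks, against 25.1% and 24.5% in BMDM, so their low counts cannot be told apart from weaker enrichment. No member region kept an RBPJ peak in Kupffer cell nuclei at 8-fold or more over input. Cell type, agonist, culture and mouse strain differ together between the LXR libraries. The second LXR library of Kupffer cells was called against an input named for a NASH diet in the file header, although the ChIP itself is named for a control diet. Among Kupffer cell nuclei, SMAD4 library 2 and RBPJ library 1 share an input.

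**Figure D5:**
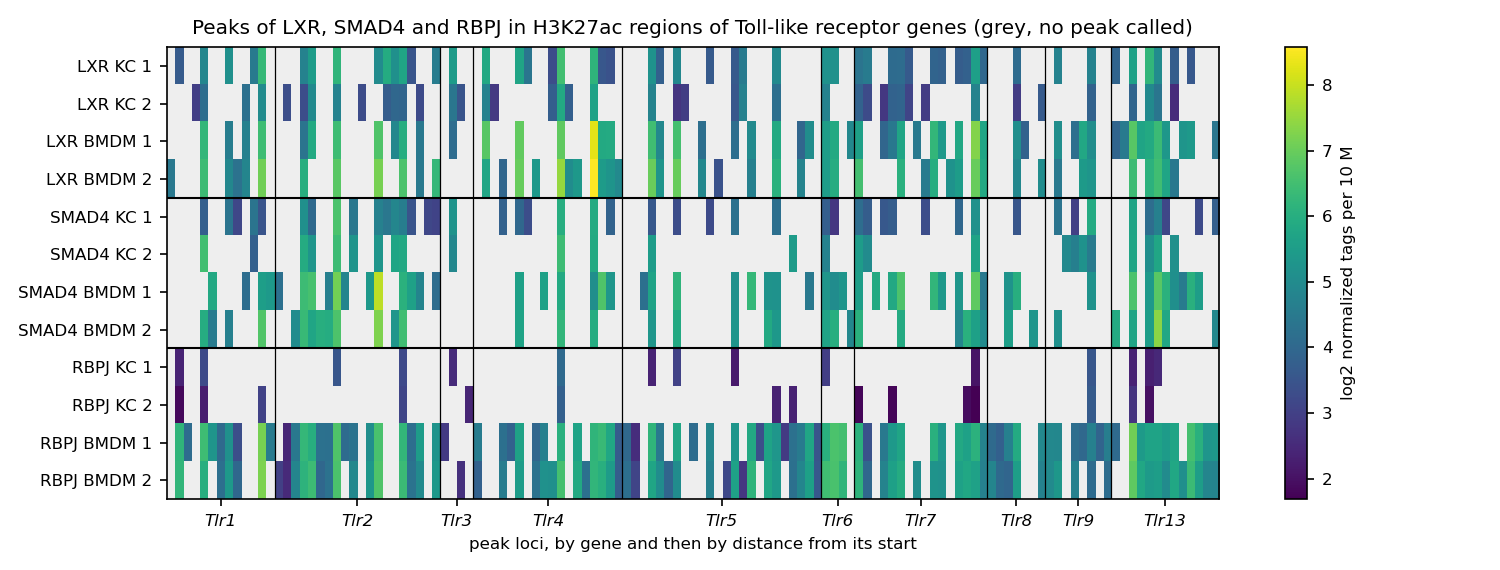
Peaks of LXR, SMAD4 and RBPJ at the 127 merged peak loci of the receptor genes (columns, by gene and distance from its start) in 12 libraries (rows; KC, Kupffer cells or their nuclei); colour is the authors' normalized tag count per 10 M on a log2 scale, and grey means that no peak was called. RBPJ peaks are sparse in Kupffer cell nuclei, with 8 loci in both libraries, and dense in BMDM, with 79.

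Peak heights are the authors' normalized tags per 10 M, given for library 1 and library 2, with no test. All 3 factors met in Kupffer cells at 7 loci, which lay at Tlr1, Tlr2, Tlr4, Tlr7, Tlr9 and Tlr13, the last with 2. Such loci were not counted over all peaks, so the count of 7 has no background. At the Tlr4 start (chromosome 4, 66827429 to 66827728), LXR had 89.4 and 57.4 in Kupffer cells and 119.9 and 179 in BMDM, SMAD4 had 63.4 and 85.9 in Kupffer cell nuclei and 58.3 and 75.4 in BMDM, and RBPJ had 16.6 and 14.0 in Kupffer cell nuclei and 66.9 and 93.8 in BMDM. An LXR peak over the 3' UTR of Tlr4 (66843371 to 66843608) had 72.3 and 50.4 in Kupffer cells and 318 and 383 in agonist-treated BMDM. It was the tallest LXR peak of any member in both BMDM libraries, while in both Kupffer cell libraries that at the Tlr4 start was. This is the region that was called higher in both liver groups than in monocytes. The Tlr4 region at -39119 bp, high in Kupffer cells alone, held an LXR peak (66788344 to 66788552) of 58.1 and 26.8 in Kupffer cells and 110.9 and 54.9 in BMDM.

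At Tlr3, the locus at -4548 bp (chromosome 8, 45414986 to 45415321) carried LXR, with 44.5 and 21.0, and SMAD4, with 37.5 and 29.4, in both Kupffer cell libraries. No factor had a peak in both BMDM libraries at any of the 4 Tlr3 loci. The printed Tlr3 promoter held no peak of both libraries. At Tlr2, the locus upstream of the start (chromosome 3, 83843713 to 83844036) had LXR in Kupffer cells, with 60.9 and 13.3, and in neither BMDM library. The printed Tlr2 promoter overlapped a locus (83841531 to 83841844) with LXR, at 35.3 and 16.0, and SMAD4, at 29.0 and 53.2, in Kupffer cells, and its LXR half-site, NF-kB and RBPJ strings lie inside that locus.

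RBPJ had peaks at Tlr1 in both cell types. At the upstream Tlr1 promoter (chromosome 5, 64933478 to 64933750) it had 5.14 and 3.60 in Kupffer cell nuclei and 72.9 and 74.9 in BMDM, and the GAGGAAGT string printed above lies inside this locus, with no RBPJ string in that window. In the downstream cluster (64884294 to 64884586) RBPJ had 143 and 149 in BMDM, the tallest RBPJ peak of any member in both BMDM libraries, with LXR at 79.5 and 32.0 in Kupffer cells and 86.4 and 136 in BMDM. RBPJ also had 91.6 and 73.8 in BMDM at the upstream Tlr6 promoter (64959954 to 64960163), where the printed RBPJ string at -44 to -39 lies inside the locus. At Tlr9, LXR and RBPJ peaks of BMDM (106222434 to 106222710) overlapped the printed promoter, and its AP-1 and SMAD strings lie inside while the RBPJ string and LXR half-site do not. A locus about 7.5 kb downstream of the Tlr9 start (106229980 to 106230331) had all 3 factors in Kupffer cells, with RBPJ at 11.7 and 12.7.

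The remaining loci of all 3 factors in Kupffer cells were in intron regions of Tlr2 (83839467 to 83839738) and Tlr7 (167315830 to 167316107), downstream of Tlr1 (64923050 to 64923341) and at a pair of loci upstream of Tlr13 (106134860 to 106135149 and 106136263 to 106136565). At the Tlr7 locus LXR had 47.7 and 27.2 in Kupffer cells and 158 and 126 in BMDM, and RBPJ had 4.11 and 3.22 in Kupffer cell nuclei and 69.9 and 49.2 in BMDM. Tlr3, Tlr5, Tlr6 and Tlr8 had no locus with RBPJ in both Kupffer cell libraries, with 0, 14, 3 and 5 in BMDM. At Tlr2, SMAD4 had 26.4 and 38.8 in Kupffer cell nuclei and 239.6 and 151 in BMDM at a locus upstream of the start (83845195 to 83845506), the tallest SMAD4 peak of any member in library 1 of BMDM. Tlr5 had 5 loci of LXR in Kupffer cells and 7 in BMDM.

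The remaining tallest peaks per gene and factor had their highest value in a BMDM library, except that of SMAD4 at the Tlr9 locus downstream of the start, which had 59.7 and 23.3 in Kupffer cell nuclei and 36.8 in library 1 alone of BMDM. At Tlr5, the tallest LXR and RBPJ peaks lay at a locus at -46236 bp (182908390 to 182908769), with LXR at 36.7 and 27.3 in Kupffer cells and 87.8 and 128 in BMDM, and RBPJ at 5.14 in library 1 alone of Kupffer cell nuclei and 72.9 and 53.2 in BMDM. At Tlr6 the locus at -898 bp (64960794 to 64961139) had RBPJ at 98.2 and 96.7, SMAD4 at 33.2 and 63.9 and LXR at 58.7 and 62.4 in BMDM, with no RBPJ peak in Kupffer cell nuclei and 1 library each with SMAD4 (6.86) and LXR (36.3) in Kupffer cells. At Tlr8 the locus at the start (167264227 to 167264497) had LXR at 17.1 and 7.46 in Kupffer cells and 34.2 and 29.4 in BMDM, and RBPJ at 60.3 and 46.9 in BMDM and in neither library of Kupffer cell nuclei. The tallest SMAD4 peak of Tlr13 (106139513 to 106139800) had 25.9 and 54.9 in Kupffer cell nuclei and 112 and 167 in BMDM. The tallest LXR peak of Tlr9 (106226274 to 106226452) was found in BMDM, at 56.5 and 43.7, and in neither Kupffer cell library, and the tallest RBPJ peak of Tlr7 (167353696 to 167353975) had 69.9 and 71.5 in BMDM and 3.41 in library 2 alone of Kupffer cell nuclei. The H3K27ac region under that Tlr7 peak is centred in the body of Prps2. At the Tlr13 locus at 106134860, RBPJ had 5.14 and 6.62 in Kupffer cell nuclei and 135 and 116 in BMDM, and LXR 49.5 and 15.3 in Kupffer cells and 110.2 and 85.6 in BMDM. At the Tlr2 locus at 83845195, LXR had 32.1 in library 1 alone of Kupffer cells and 102 and 144 in BMDM, and RBPJ no peak in Kupffer cell nuclei and 97.0 and 103 in BMDM. SMAD4 had 35.9 and 51.5 in Kupffer cell nuclei and 117 and 48.8 in BMDM at the Tlr7 intron locus, and 11.1 in library 1 alone of Kupffer cell nuclei and 46.7 and 106 in BMDM in the cluster downstream of Tlr1. RBPJ at the Tlr9 promoter had 29.5 and 40.6 in BMDM and no peak in Kupffer cell nuclei. Those of SMAD4 at Tlr4 (103), Tlr5 (77.2) and Tlr8 (64.6) and of RBPJ at Tlr3 (7.23) were called in library 1 of BMDM and not in library 2.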

How the data were processed

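H3K27ac was measured in 10 libraries and factor binding in 12; 12 input libraries entered only through the authors' peak calls. The authors deposited raw tag counts per 2000 bp region, annotated to the nearest gene, and HOMER peak lists that give each peak's normalized tags (signal per 10 M tags), score and enrichment over input (ratio). The deposited peak score and fold were used as the authors' values to describe or filter peaks. Bowtie2, HOMER and the build mm10 are named, without versions, per the submitters' processing notes. Peaks were called per library against an input with 4-fold required, per the file headers. The deposited normalized signal sets libraries to one depth and does not correct for enrichment.

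From the counts, regions and gene sums (regions within 100 kb) were tested over the whole table with edgeR 4.0.16 in R 4.3.3 (TMM, filterByExpr, robust quasi-likelihood test, Benjamini-Hochberg adjustment); SE is the log2 fold change over the root of F. In each direction calls needed an adjusted p under 0.05 and 2-fold. The 6 libraries of the first table shared 1 fit. On simulated counts with 200 changed features of 4-fold, the RLM test recovered 91.5% over 80982 regions and the DLL4 test 96% over 82089. They also called 14 and 9 unchanged regions. The simulation gave all features the same spread and changed only those above a minimum mean tag count. These rates therefore do not describe weak regions or 2-fold changes. Peaks counted where both libraries of a group overlapped a region by at least 1 bp. The members and lists were chosen with earlier results of these data known. The rule named each gene's promoter, highest and most changed regions, its tallest peaks, and up to 4 pathway genes per direction; in BMDM uncalled regions are given as a range; other regions were chosen after their values were seen. Same-numbered libraries did not deviate together (r -0.018 to 0.038). Alternatives are DESeq2 1.42.0, other scalings, filters, windows and left-out libraries.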

Additional observations from a re-analysis of the deposited data

How the results depend on the processing

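Counts of called member regions or genes, given per comparison and direction, were recomputed under each alternative, as were peak counts: 207 values stayed within 1.5 times the count and 37 did not. Of the values of single genes and regions, 1478 kept direction and call, 40 lost the call, 20 gained it and 24 changed sign. Depth limits weak regions: 3 regions of the liver table and 5 of the BMDM table were too low to test. Shares over all regions or genes were not counted without the fold minimum, so the counts that follow under that setting have no background. With no fold minimum, Kupffer cells against RLM had 42 regions higher, 7 genes higher and 1 lower; RLM against monocytes 3 genes higher and 1 lower; Kupffer cells against monocytes 1 gene lower; and DLL4 29 regions higher, 9 lower and 7 genes higher. Within 25 kb, lower regions were 3 for Kupffer cells against RLM and 8 against monocytes, 4 were higher with DLL4, and 3 genes were called higher for Kupffer cells against RLM. The fit of the 4 libraries compared alone gave 20 lower regions for Kupffer cells against RLM. Size factors (RLE), DESeq2 and regions that do not overlap each gave 2 genes higher in that comparison. Scaling by total tags gave 1 gene lower in Kupffer cells against RLM and against monocytes and 0 higher with DLL4.

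Leaving out 1 library at a time, Kupffer cells against RLM had 17 to 30 regions higher and 5 to 15 lower, and 1 to 3 genes higher. Against monocytes, lower regions ranged from 10 to 16. RLM against monocytes had 0 to 1 genes higher and 0 to 1 lower, and DLL4 had 0 to 1 genes higher and 0 to 1 regions lower. The 3 peak counts that moved ranged from 45 to 70 for SMAD4 in Kupffer cell nuclei, from 51 to 65 for SMAD4 in BMDM and from 26 to 27 for RBPJ in Kupffer cell nuclei, where 0 were left at 8-fold over input. Fewer libraries needing a peak raises these counts by construction.

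Values near 0 changed sign. The Tlr2 sum for RLM against monocytes, 0.05 in the main fit, was -0.45 with regions that do not overlap (edgeR adjusted p = 0.0259). That value is not near 0, and it is under the 2-fold minimum. The Tlr2 sum was -0.0022 in the fit of 4 libraries and -0.055 to 0.077 with a library left out. The Tlr9 sum was -0.17 for Kupffer cells against RLM with scaling by total tags and -0.11 to 0.45 for RLM against monocytes with a library left out. The Tlr9 promoter region for RLM against monocytes was -0.0089 with RLE, -0.0057 with no filter, -0.0085 with DESeq2, -0.055 in the fit of 4 libraries and -0.34 to 0.33 with a library left out, and against monocytes in Kupffer cells it was -0.64 to 0.030. A Tlr7 intron region was -0.025 for DLL4 with scaling by total tags. With a library left out, the ranges for RLM against monocytes were -0.17 to 0.68 at the Tlr3 promoter, -0.13 to 0.28 at that of Tlr7 and -0.0069 to 0.068 at that of Tlr8. For Kupffer cells they were -0.31 to 0.087 at the Tlr13 promoter against monocytes, and -0.17 to 0.53 and -0.014 to 0.70 at the Tlr4 promoter and intron regions against RLM. For DLL4 they were -0.053 to 0.029 at the Tlr4 intron region and -0.0027 to 0.21 at a Tlr8 intron region. The cause of these changes was not tested.

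Same-numbered libraries were not shown to be paired. With the replicate block, Kupffer cells against monocytes had 32 regions higher and 15 lower, DLL4 had 7 higher and 1 lower, and RLM against monocytes had 10 higher and 11 lower, and the block changed no call of the genes and regions named.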
